A study of Mus musculus with 15 samples.

Results

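The genes described here are 33 genes of mitosis, chosen by name and found among the 78317 gene identifiers counted in embryonic mouse ventricles. They were the cyclin-dependent kinase Cdk1 and its cyclins Ccnb1, Ccnb2 and Ccna2, the mitotic kinases and chromosomal passenger proteins Plk1, Aurka, Aurkb, Birc5 and Incenp, and the checkpoint and anaphase genes Bub1, Bub1b, Bub3, Mad2l1, Ttk, Cdc20 and Ube2c. The kinetochore and centromere genes were Ndc80, Nuf2, Cenpa, Cenpe and Cenpf, the spindle genes were Kif11, Kif2c, Kif4, Tpx2 and Nusap1, and the cytokinesis genes were Kif20a, Kif23, Prc1, Anln and Ect2. Top2a and Mki67 completed the set. All 33 were matched to an identifier, lay on 15 chromosomes and were among the 20269 genes that passed the filter on low counts.

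A cell enters mitosis when Cdk1 bound to a B-type cyclin becomes active. Chromosomes then condense, kinetochores attach them to spindle microtubules, and the spindle checkpoint restrains the anaphase-promoting complex until every chromosome is attached. Cdc20 activates that complex, which marks the cyclins for destruction, and cytokinesis then divides the cell. Most of these messages accumulate in G2 and M phase and are low in cells that have left the cycle, so in a tissue they are commonly read as a measure of cycling cells. In the embryonic ventricle cardiomyocytes still divide, as do the endocardial, epicardial, mesenchymal and blood cells beside them. In bulk tissue, fewer dividing cells and less RNA per dividing cell cannot be told apart.

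RNA was sequenced from dissected ventricles of C57BL/6 embryos at embryonic day 11.5. In the line called CDS, loxP sites flank Atf4 exons 2 and 3 and leave its polyadenylation signal in place, and in the line called PAS they flank the polyadenylation signal itself. Atf4 is a transcription factor that cells make under amino acid and protein-folding stress. The Cre in both lines was Xmlc2-Cre, which is expressed in cardiomyocytes and was not directed at the other cells of the ventricle. The libraries labelled knockout numbered 4 in each line, and those labelled control 4 for CDS and 3 for PAS. The genotype of the controls beyond that word, and whether they carried Cre, is not given in the sources used here.

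The upstream regions of the members show what they share in sequence apart from the measured levels. CCAAT boxes are bound by the factor NF-Y, and the letters TTTGAA or TTCGAA are the core of the cell cycle genes homology region, an element known from promoters of genes that peak in G2 and M phase. RefSeq promoters (GRCm38.p6, 250 bases before to 50 after the start) were found for 28 members. The entries of Ccna2, Aurkb, Incenp, Tpx2 and Kif20a were missing. The 200 bases before the start are shown for Cdk1, Ccnb2, Cdc20, Top2a, Mki67, Cenpf, Cenpe and Kif4, read 5′ to 3′ on the strand of the gene. The first 4 show both kinds of letters together. The last 4 are the genes with an entry that differed between the lines in the results given further on. Of these, Mki67 also shows both kinds. Cenpf and Kif4 hold TTTGAA just after the start, outside the bases shown, and Cenpe holds CCAAT alone. Capitals mark CCAAT, which reads ATTGG from the other strand, as well as TTTGAA, which reads TTCAAA from the other strand, and the palindrome TTCGAA.
Cdk1 (chr10:69352913-69353112, minus strand): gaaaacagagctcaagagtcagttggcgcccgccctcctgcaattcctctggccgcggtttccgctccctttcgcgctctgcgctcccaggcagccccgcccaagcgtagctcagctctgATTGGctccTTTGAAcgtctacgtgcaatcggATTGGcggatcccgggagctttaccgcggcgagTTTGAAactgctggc
Ccnb2 (chr9:70421555-70421754, minus strand): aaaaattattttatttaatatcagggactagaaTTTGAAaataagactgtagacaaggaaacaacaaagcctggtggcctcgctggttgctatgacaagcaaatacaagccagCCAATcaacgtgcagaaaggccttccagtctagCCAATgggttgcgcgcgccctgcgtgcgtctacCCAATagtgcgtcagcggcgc
Cdc20 (chr4:118437344-118437543, minus strand): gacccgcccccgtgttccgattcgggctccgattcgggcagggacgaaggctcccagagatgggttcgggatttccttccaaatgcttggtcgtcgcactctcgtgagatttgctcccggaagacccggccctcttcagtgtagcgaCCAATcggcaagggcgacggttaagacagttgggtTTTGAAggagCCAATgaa
Top2a (chr11:99024190-99024389, minus strand): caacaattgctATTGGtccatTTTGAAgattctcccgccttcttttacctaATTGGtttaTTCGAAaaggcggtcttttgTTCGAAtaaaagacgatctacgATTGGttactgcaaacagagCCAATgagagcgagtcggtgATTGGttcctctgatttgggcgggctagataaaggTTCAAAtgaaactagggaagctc
Mki67 (chr7:135716380-135716579, minus strand): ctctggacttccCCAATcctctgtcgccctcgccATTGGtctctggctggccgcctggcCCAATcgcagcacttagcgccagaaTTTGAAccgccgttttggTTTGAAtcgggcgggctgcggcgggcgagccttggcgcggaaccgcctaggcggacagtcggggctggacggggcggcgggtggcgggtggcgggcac
Cenpf (chr1:189688087-189688286, minus strand): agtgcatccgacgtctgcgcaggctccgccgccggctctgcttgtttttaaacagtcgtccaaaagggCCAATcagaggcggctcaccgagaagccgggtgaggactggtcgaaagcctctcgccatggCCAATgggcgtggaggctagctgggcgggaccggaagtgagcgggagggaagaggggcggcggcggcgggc
Cenpe (chr3:135212363-135212562, plus strand): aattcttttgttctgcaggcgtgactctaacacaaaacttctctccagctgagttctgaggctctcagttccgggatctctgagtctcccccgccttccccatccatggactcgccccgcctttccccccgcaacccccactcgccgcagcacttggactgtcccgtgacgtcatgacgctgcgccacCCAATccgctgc
Kif4 (chrX:100625865-100626064, plus strand): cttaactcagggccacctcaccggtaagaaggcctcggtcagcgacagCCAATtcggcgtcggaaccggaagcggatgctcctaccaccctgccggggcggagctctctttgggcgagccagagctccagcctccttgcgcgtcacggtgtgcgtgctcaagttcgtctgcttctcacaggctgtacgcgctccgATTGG
Counted over the 300 bases on either strand, CCAAT occurred in 21 of the 28 members (75.0%), against 37.4% of 32851 mouse promoters. At least 2 copies stood in 15 members (53.6%) and in 11.7% of all promoters. TTTGAA occurred in 21 members (75.0%) and in 17.9% of all promoters, and TTCGAA in 3 members (10.7%) and in 1.6% of all. CCAAT together with TTTGAA or TTCGAA was found in 19 members (67.9%), against 7.5% of all promoters. Each listed gene counted once, by its first listed start, whereas the share over all promoters counts every listed start. These are matches of letters and not measured binding sites. CCAAT on one strand can overlap CCAAT on the other, as in CCAATTGG, and both were then counted.

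Library checks that bear on the members were as follows. The CDS libraries held 30376847 to 46472141 counts each and the PAS libraries 22623499 to 29315724, so depth differed between the lines, and the lines were counted in separate runs. The labels conflict, because cultured cortical neurons are named as the source in the extraction protocol. The cardiomyocyte markers were all 15 detected, with Actc1 at group means of 9860 to 10800 CPM (counts scaled to a library of 1000000), while the cortical neuron genes Emx1, Neurod1, Neurod6 and Tbr1 had group means of at most 0.235 CPM, and Neurod6 was at 0 in every library. Atf4 itself stood at 39.6 to 48.1 CPM in the libraries labelled CDS knockout against 112 to 116 in their controls. In the libraries labelled PAS knockout it stood at 259 to 304 CPM against 92.2 to 100, so that its level goes against the word knockout there, and that group is named by its label throughout. CDS knockout 3 stood apart from the other libraries of its group in its counts over all genes, red cell and mitotic messages among them. CDS knockouts 3 and 4 stood apart in messages of choroid plexus and liver. Counts and calls that they move are given with and without them.

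Levels of different genes were compared as CPM divided by exon length in kilobases (length-scaled CPM). Mki67, which encodes the Ki-67 coat protein of mitotic chromosomes, had the highest mean over the 15 libraries at 65.3. Top2a, the topoisomerase that untangles sister chromatids, followed at 61.5. Ube2c, the ubiquitin-conjugating enzyme of the anaphase-promoting complex, stood at 54.6, the cyclins Ccnb2, Ccna2 and Ccnb1 at 49.5, 47.8 and 37.1, and Cdc20 at 44.0. The kinases ran lower, with Plk1 at 35.1, Cdk1 at 28.9, Aurka at 23.2 and Aurkb at 17.0 length-scaled CPM. The passenger complex genes Incenp, its scaffold, and Birc5, which encodes survivin, stood at 26.3 and 23.7, close to the spindle genes Kif11 at 23.5 and Nusap1 at 21.4. The cytokinesis genes ran from 22.7 (Kif20a) and 22.1 (Ect2) down to 15.7 (Anln, a scaffold of the contractile ring), 14.8 (Prc1) and 14.4 (Kif23, a subunit of the midzone complex centralspindlin). At the low end were 2 subunits of the microtubule-binding Ndc80 complex, Ndc80 at 6.29 and Nuf2 at 7.86, the checkpoint kinase Ttk at 6.77 and the checkpoint protein Mad2l1 at 9.37. The length used is the union of all annotated exons, from 1531 bases in Ccnb2 to 15433 in Cenpf, and a long union lowers the value. Neighbours in this order often overlapped, as for Bub1b at 36.6 and Ccnb1 at 37.1, whose libraries overlapped in the plot of levels.

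**Figure D1:**
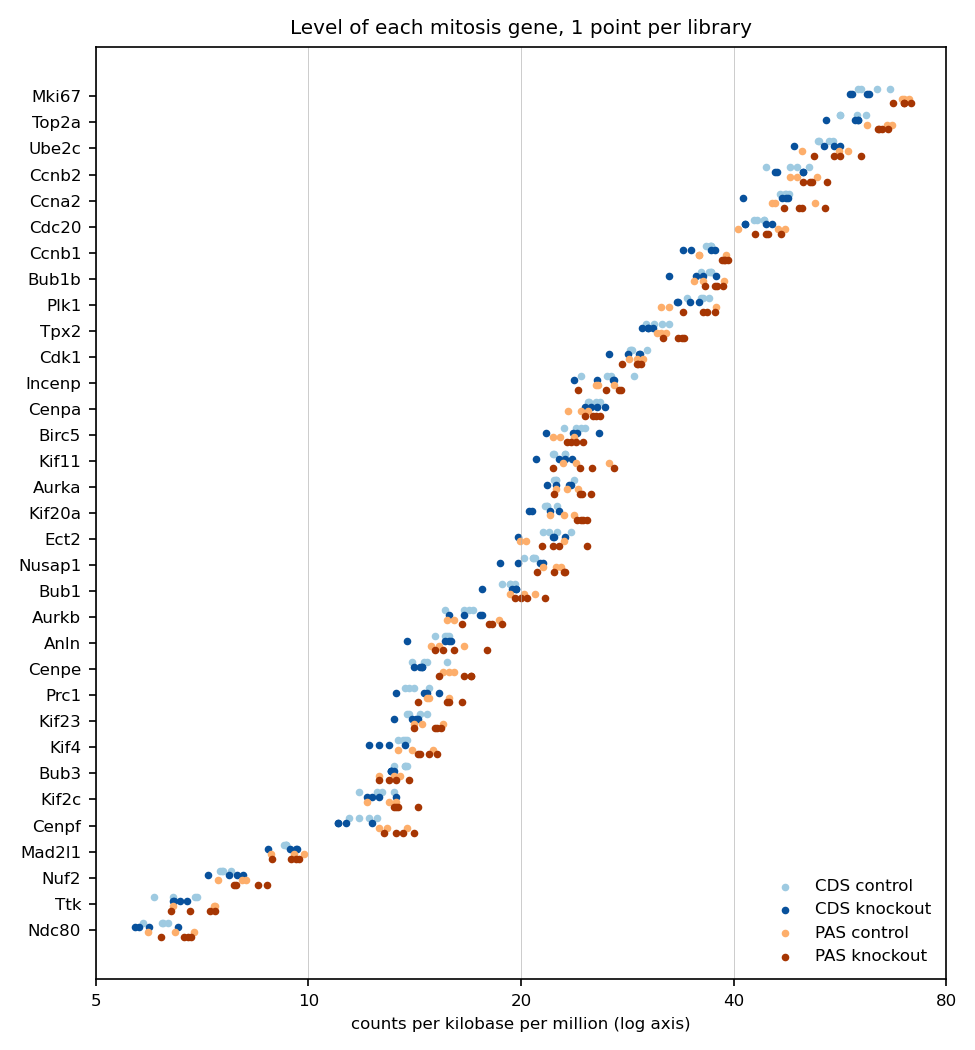
Level of each of the 33 mitosis genes in 15 libraries, as length-scaled CPM (per kilobase of exon) on a log axis, 1 point per library coloured by group, with genes ordered by mean level. The points of a gene lie within 1.10-fold (Bub3) to 1.31-fold (Ccna2) of each other, while the means of the genes run from 6.29 to 65.3.

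No mitosis gene passed the test between knockout and control in the CDS line. The question of this comparison is what changes when the coding exons of Atf4 are removed from cardiomyocytes. Of the 33 genes, 0 were called at an adjusted p under 0.05 (quasi-likelihood test of edgeR, adjusted by Benjamini-Hochberg over all genes), beside 11 of all 20269 genes (0.0543%), 9 of them lower (0.0444%). At an unadjusted p under 0.05 the count was 0 of 33 members against 532 genes (2.62%), and DESeq2 and limma-voom also called 0 members. The fitted differences had a median of -0.03 (log2), with 7 members higher and 26 lower, and 0.00 over all genes.

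The member furthest from 0 was Kif4, a chromosome-bound kinesin that helps compact chromosomes and organise the midzone of the spindle. It stood at 75.3, 69.3, 67.2 and 71.8 CPM in the CDS knockouts and at 74.7, 73.7, 75.8 and 75.8 in the CDS controls, a log2 difference of -0.08 ± 0.04 (SE; adjusted p = 1 by edgeR). The groups overlapped through CDS knockout 1. Cenpf was next at -0.07 ± 0.05, with values given further on. Plk1, the kinase that drives entry into mitosis and spindle assembly, stood at 76.3, 73.5, 73.0 and 78.5 CPM against 81.0, 75.4, 79.6 and 79.0, a log2 difference of -0.06 ± 0.05, again with overlap. Bub1b, which encodes the checkpoint protein BubR1, stood at 161, 151, 138 and 155 CPM against 159, 154, 158 and 159, and its lowest value was that of CDS knockout 3.

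Bub3, the partner that brings Bub1 and BubR1 to kinetochores, was the 1 member whose CDS groups did not overlap. It stood at 92.0, 92.0, 92.1 and 92.5 CPM in the knockouts against 96.1, 95.7, 96.4 and 92.7 in the controls, a log2 difference of -0.05 ± 0.04 (adjusted p = 1 by edgeR). Over all genes 1.32% were lower without overlap in the CDS knockouts and 1.48% higher, so 1 of 33 is close to the share over all genes. The 95% intervals of all 33 members lay between ratios of 0.889 and 1.10, which bounds the differences these 8 libraries allow. The direction rested on CDS knockout 3: without that library 18 of 33 members were higher and the median was 0.003.

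In the PAS line too, 0 mitosis genes passed the test between knockout and control, beside 2 of all genes (0.00987%). Here the comparison asks what follows removal of the polyadenylation signal. 28 members were higher in the PAS knockouts and 5 lower, with a median log2 difference of 0.05 against 0.00 over all genes. The number higher was 23 without PAS knockout 2, 23 without PAS control 1 and 32 without PAS control 3. At an unadjusted p under 0.05 there was 1 member, Kif20a, against 1062 genes (5.24%), and DESeq2 and limma-voom called 0 members. The intervals of the members lay between ratios of 0.901 and 1.18.

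Kif20a, a kinesin of the spindle midzone needed for cytokinesis, stood at 104, 106, 108 and 105 CPM in the PAS knockouts and at 99.7, 95.5 and 103 in the PAS controls. The 2 groups did not overlap, which 2.21% of all genes also showed in that direction and 2.38% in the other, and the log2 difference was 0.09 ± 0.04 (adjusted p = 0.934 by edgeR). Ect2, the exchange factor that activates RhoA at the division plane, had the largest difference at 0.11 ± 0.06. Its values were 115, 134, 120 and 122 CPM in the knockouts, which overlapped the 109, 107 and 124 of the controls. Plk1 stood at 80.7, 74.6, 82.8 and 79.5 CPM against 69.5, 82.9 and 71.3, with PAS control 2 above every knockout. Ccnb1, the main mitotic cyclin, stood at 164, 162, 163 and 166 CPM against 151, 164 and 150, again with PAS control 2 among the knockouts.

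By role, the medians in the CDS line ran from -0.035 (log2; Cdk1 and its cyclins, 0 of 4 higher, and the kinetochore genes, 2 of 5 higher) to -0.01 (kinases and passenger genes, 2 of 5 higher). Without CDS knockout 3 they ran from -0.02 to 0.014, with 3 of 4 of Cdk1 and its cyclins higher. In the PAS knockouts 3 of these 4 were higher. All 5 mitotic kinase and passenger genes, all 5 kinetochore genes, all 5 spindle genes and all 5 cytokinesis genes had higher fitted values in the PAS knockouts, with role medians of 0.05 to 0.06. The 7 checkpoint and anaphase genes had a median of 0.015, with 5 higher, and Top2a and Mki67 one of -0.005. None of these values passed the test. The role counts of the PAS line were not recomputed without single PAS libraries.

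The difference between these 2 changes was tested directly. 0 members were called, beside 1 of all genes (0.00493%), although 31 of 33 fitted values were positive, with a median of 0.06 (log2) against 0.00 over all genes. Without CDS knockout 3 the count of positive values was 23 of 33. Those at an unadjusted p under 0.05 were Tpx2, Kif4, Plk1, Kif20a and Ccnb1, 5 of 33, against 843 of all genes (4.16%). That count moved with single libraries: it was 1 without CDS knockout 3 (676 genes, 3.37%), 0 without CDS knockouts 3 and 4, and 0 with a replicate block. It was also 1 without any 1 of CDS control 1, CDS control 3, CDS control 4, PAS knockout 3 and PAS control 1, and 2 or 3 without any 1 of CDS knockout 2, CDS control 2, PAS knockout 2, PAS knockout 4 and PAS control 2. The count was 4 without CDS knockout 4 or PAS knockout 1, 5 without PAS control 3 and 7 without CDS knockout 1. With DESeq2 or its size factors it was 4, and with limma-voom or no filter it was 5. Plk1 was furthest from 0, at 0.16 ± 0.07 (adjusted p = 0.995 by edgeR), followed by Ect2 at 0.14 ± 0.08 and Kif4 at 0.14 ± 0.06. The 2 negative values both belonged to checkpoint and anaphase genes.

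**Figure D2:**
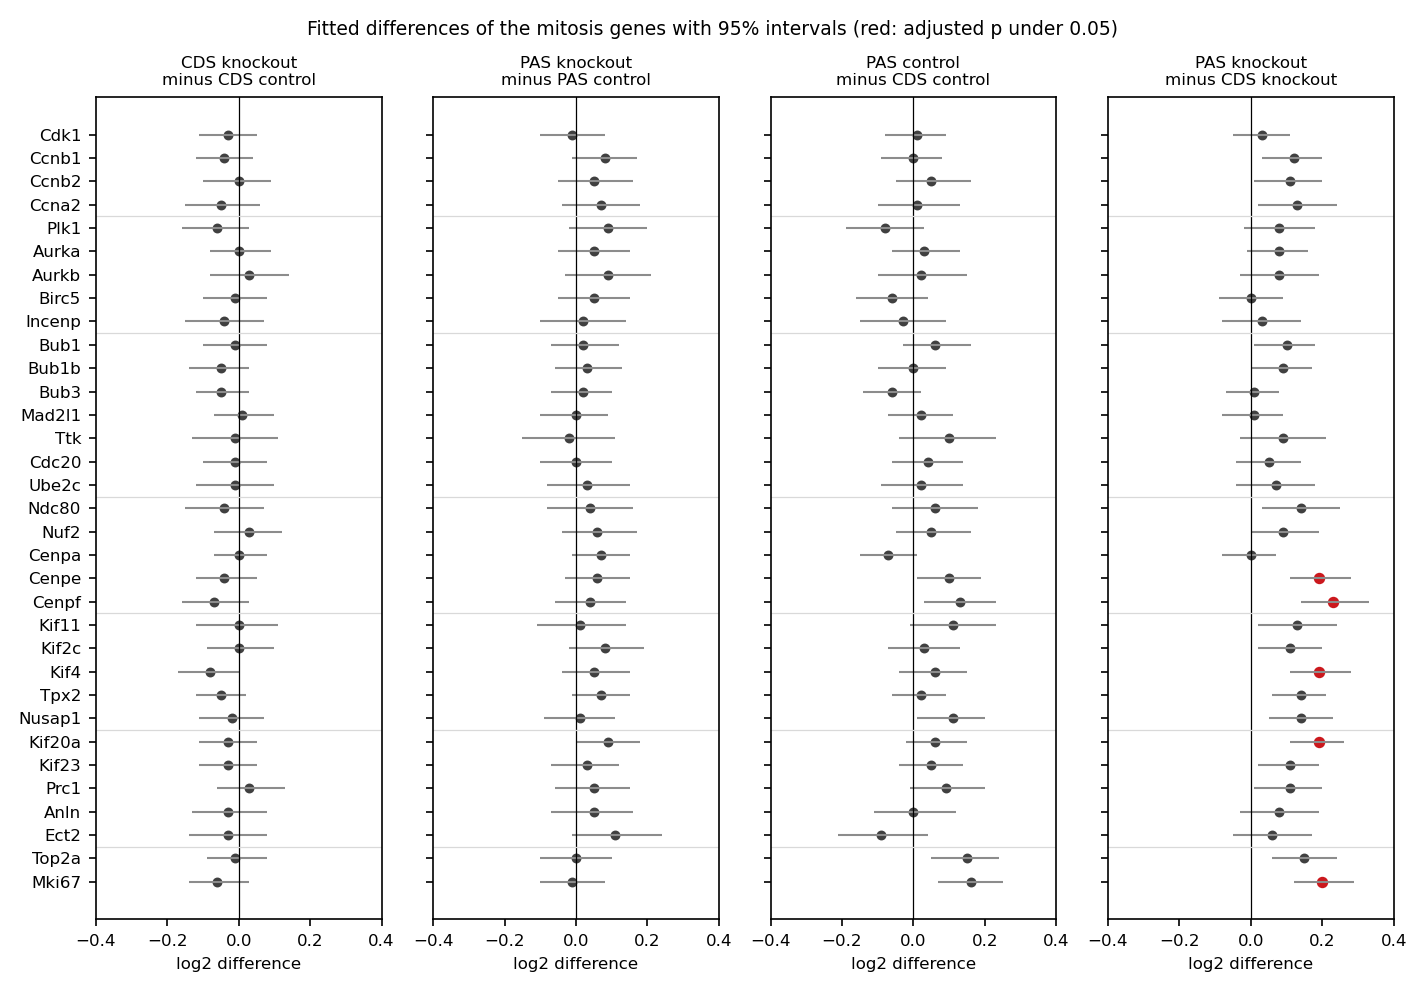
Fitted log2 difference of each mitosis gene (points) with its 95% interval (lines) in 4 comparisons, with genes grouped by role from Cdk1 and its cyclins at the top to Top2a and Mki67 at the bottom. The intervals of the 2 knockout comparisons reach no lower than -0.17 and no higher than 0.24, and the 5 red points in the right panel are the genes called between the knockout groups.

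Between the lines, a few mitosis genes were higher in the PAS knockouts than in the CDS knockouts, and none passed the test of edgeR between the control groups. Among the libraries labelled knockout, 5 of 33 members passed the test, all higher in the PAS line: Cenpf, Mki67, Kif20a, Cenpe and Kif4. Over all genes 237 were called (1.17%), 57 of them higher (0.281%) and 180 lower (0.888%). In all, 31 of 33 members were higher, with a median log2 difference of 0.10 against 0.00 over all genes, and 17 had an unadjusted p under 0.05, against 2740 genes (13.5%) in either direction. Without CDS knockout 3 the latter count was 10 (12.1% of genes), without CDS knockout 4 it was 13 (11.8%), and without both it was 8 (8.7%). Line, depth and counting run cannot be told apart in this comparison.

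Cenpf encodes a large protein of the outer kinetochore that accumulates in G2 (identifier ENSMUSG00000026605.15, chromosome 1 from 189372803 to 189420283, minus strand, GRCm39). Its level was 198, 217, 205 and 210 CPM in the PAS knockouts and 191, 175, 169 and 170 in the CDS knockouts. Every PAS knockout lay above every CDS knockout, and the log2 difference was 0.23 ± 0.05 (adjusted p = 0.0106 by edgeR, 4 of 4 libraries higher), a ratio of 1.18. Cenpe, the kinesin that carries chromosomes to the spindle equator (ENSMUSG00000045328.12, chromosome 3 from 134918298 to 134979372, plus strand), stood at 132, 147, 146 and 143 CPM against 125, 125, 124 and 121. These groups did not overlap either, and the log2 difference was 0.19 ± 0.04 (adjusted p = 0.0174 by edgeR).

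Mki67 (ENSMUSG00000031004.9, chromosome 7 from 135291513 to 135318090, minus strand) stood at 678, 701, 718 and 701 CPM in the PAS knockouts and at 621, 626, 592 and 588 in the CDS knockouts. The log2 difference was 0.20 ± 0.04 (adjusted p = 0.0113 by edgeR), with all PAS values above all CDS values. Kif20a (ENSMUSG00000003779.17, chromosome 18 from 34757666 to 34766330, plus strand) stood at 95.5, 97.9, 89.8 and 89.1 CPM in the CDS knockouts, below the 104 to 108 CPM of the PAS knockouts, a log2 difference of 0.19 ± 0.04 (adjusted p = 0.0165 by edgeR). Kif4 (ENSMUSG00000034311.4, chromosome X from 99669343 to 99770820, plus strand) stood at 81.8, 84.0, 79.4 and 78.7 CPM in the PAS knockouts, also without overlap with the CDS knockouts, a log2 difference of 0.19 ± 0.04 (adjusted p = 0.0241 by edgeR). The longest overlap of an exon with one on the other strand was 977 bases for Kif20a (Cdc23) and 683 for Kif4 (Pdzd11). For Cenpf it was 379 bases, with a gene without a symbol. No strand option was set in the counting, so reads from those stretches cannot be assigned to 1 of the 2 genes.

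Ccnb1, Top2a and Tpx2 also did not overlap between the knockout groups, which made 8 of 33 members higher without overlap, against 4.04% of all genes, and 0 lower, against 4.82%. Leaving out CDS knockouts cannot create overlap, apart from small shifts of the normalisation, so it could not test these 8. They stayed the same without CDS knockout 3, without CDS knockout 4 and without both. The share of all genes higher without overlap was then 5.66%, 5.44% and 8.78%. Tpx2, which activates Aurka on the spindle, stood at 158, 149, 159 and 156 CPM in the PAS knockouts and at 142, 142, 139 and 143 in the CDS knockouts, and just missed the threshold (log2 difference 0.14 ± 0.04, adjusted p = 0.0578 by edgeR). Top2a stood at 577, 597, 585 and 580 CPM against 541, 535, 488 and 540, with a log2 difference of 0.15 ± 0.04 and an adjusted p of 0.0823 by edgeR. At the other end Cenpa, the histone variant that marks centromeres, differed by 0.00 ± 0.04, with a 95% interval from -0.08 to 0.07. Its values were 149, 152, 149 and 144 CPM against 154, 147, 144 and 150.

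The 5 calls were sensitive to single libraries. Without CDS knockout 4, without PAS knockout 4, or without CDS knockouts 3 and 4 together, 0 members were called, and their log2 differences were then 0.13 to 0.23. Without PAS knockout 3 the count was 1 (Cenpf), and without CDS knockout 2 or CDS knockout 3 it was 3. Genes of choroid plexus and liver moved with the same contrast: Ttr, the thyroid hormone carrier made in both tissues, stood at 13.8, 17.6, 104 and 154 CPM in the CDS knockouts and at 0.302 to 0.55 in the PAS knockouts (log2 difference -7.35, adjusted p = 0.0144 by edgeR). Without CDS knockouts 3 and 4 the log2 difference of Ttr was -5.15 (adjusted p = 0.00495 by edgeR). The choroid plexus and liver markers also summed to 35.3 to 69.1 CPM in the CDS controls and 17.3 to 29.3 in the PAS controls. Of the 6 tested, 5 were lower and 1 higher in the PAS controls, with 0 calls. Erythroid markers summed to 1710 to 4610 CPM in the CDS knockouts and 1230 to 2430 in the PAS knockouts. The part of either in the mitosis genes was not tested.

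**Figure D3:**
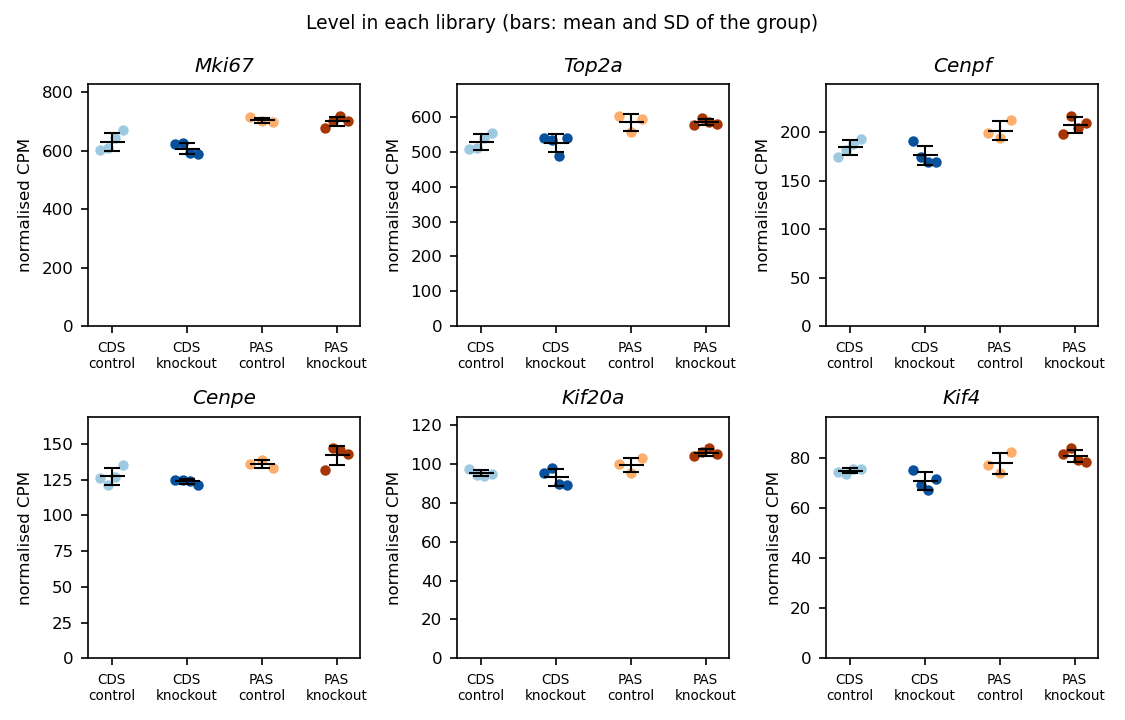
Normalised CPM of Mki67, Top2a, Cenpf, Cenpe, Kif20a and Kif4 in each library (points) by group, with the group mean and SD as bars and axes from 0. The PAS knockouts of all 6 genes lie above the CDS knockouts, by 1.11-fold (Top2a) to 1.18-fold (Cenpf), and the control groups of Cenpe, Kif20a and Kif4 overlap.

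The same contrast in the controls shares no library with that of the knockouts. There 0 members were called, beside 29 of all genes (0.143%), 7 of them higher (0.0345%) and 22 lower (0.109%), while 25 were higher in the PAS controls and 8 lower, with a median log2 difference of 0.03 against 0.00. Mki67 was furthest from 0: it stood at 713, 702 and 696 CPM in the PAS controls and at 603, 609, 642 and 669 in the CDS controls, a log2 difference of 0.16 ± 0.04 (adjusted p = 0.174 by edgeR, and 0.0226 by DESeq2, under which it was the 1 member called). Top2a stood at 603, 557 and 594 CPM against 509, 510, 539 and 555, a log2 difference of 0.15 ± 0.05 (adjusted p = 0.26 by edgeR). Cenpf stood at 199, 194 and 213 CPM against 175, 182, 188 and 193, a log2 difference of 0.13 ± 0.05 (adjusted p = 0.363 by edgeR). For each of these 3 genes every PAS control lay above every CDS control, as for Nusap1, a microtubule-binding protein of the spindle. These 4 of 33 were higher without overlap, against 4.3% of all genes, and Cenpa was lower without overlap, against 5.16%.

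Higher values in the PAS line in both contrasts were found for 25 of 33 members (75.8%), against 31.9% of all genes tested, and for 23 (69.7%, against 32.6%) without CDS knockout 3. Among the controls alone, 9.6% of all genes had an unadjusted p under 0.05. Such a p in both contrasts, higher in the PAS line, was found for 5 members, Cenpe, Cenpf, Mki67, Nusap1 and Top2a. They are 5 of the 5 members with such a p among the controls and 5 of the 17 among the knockouts. Over all genes 240 met that rule, out of 863 among the controls and 1302 among the knockouts. Without CDS knockouts 3 and 4 the rule was met by 4 of these members, Nusap1 no longer among them, and by 160 genes. Among the controls the mitotic kinases and passenger genes had a median log2 difference of -0.03, with 2 of 5 higher, and Top2a and Mki67 had one of 0.15. Differences between roles were not tested.

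Exon length moved with the difference between the lines. Among the 6072 genes in the members' range of level, the median log2 difference of PAS knockouts from CDS knockouts was -0.05 for 412 genes of at most 2000 exon bases, -0.01 up to 4000, 0.01 up to 8000 and 0.03 for 1697 genes above 8000. The mitosis genes ran at 0.08 (2 genes), 0.08 (5 genes), 0.11 (19 genes) and 0.15 (7 genes) in the same bins, above those medians in each, and without CDS knockout 3 at 0.06, 0.05, 0.08 and 0.12. Among the controls the genes at like levels ran at -0.06, -0.02, 0.00 and 0.01, and the mitosis genes at 0.04, 0.03, 0.03 and 0.10. Cenpf, Mki67 and Cenpe, of 15433, 10061 and 8620 exon bases, are among the longest members, whereas Kif20a has 4338 and Kif4 5514. The part of length in the result was not tested.

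**Figure D4:**
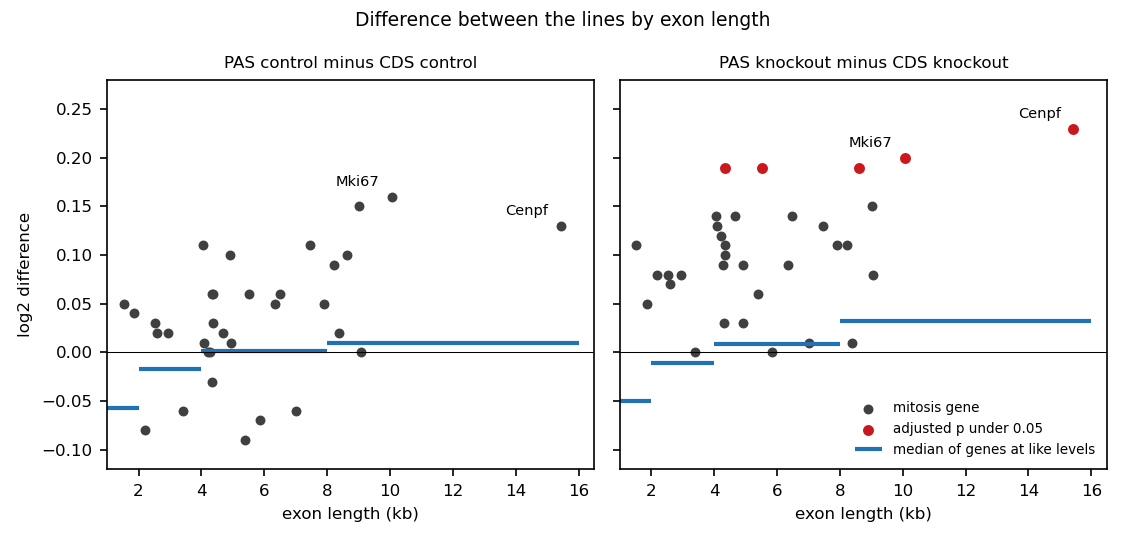
Log2 difference of the PAS from the CDS line against exon length (kb) for each mitosis gene (points), among the controls (left) and the knockouts (right), with the median of genes at like levels in 4 length bins as blue lines. The blue lines climb from -0.06 to 0.01 on the left and from -0.05 to 0.03 on the right, and most points lie above them.

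Within groups the members varied little between hearts. The SD of log2 CPM about the group mean was 0.062 at the median over the 33 members, with a range from 0.04 to 0.09. It was 0.065 over the genes in the same range of level and 0.15 over all genes tested. In the CDS knockouts the median SD of the members was above that of genes in the same range, at 0.072 against 0.049. It was below in the CDS controls, at 0.041 against 0.056. In the PAS knockouts it was 0.057 against 0.064, and in the PAS controls 0.07 against 0.071. The coefficient of variation over the libraries of a group ran from 0.256% (Bub3 in the CDS knockouts) to 9.76% (Plk1 in the PAS controls), and all 132 values were under 10%. The lowest count of a member in any library was 742, for Ttk, and counting alone gives an SD of 0.01 (Mki67) to 0.04 (Ttk) on this log2 scale.

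The most variable members were Kif11, the motor that pushes spindle poles apart, and Ect2, each with an SD of 0.09. Kif11 stood at 176, 173, 156 and 169 CPM in the CDS knockouts, at 166, 166, 172 and 172 in the CDS controls, at 166, 202, 180 and 188 in the PAS knockouts and at 178, 171 and 198 in the PAS controls. Its spread was widest in the PAS line, where PAS knockout 2 and PAS control 3 were high. Ect2 stood at 125, 119, 107 and 120 CPM in the CDS knockouts and at 118, 126, 121 and 116 in the CDS controls, and was again lowest in CDS knockout 3. The least variable were Tpx2 and Cenpa, each at 0.04. Tpx2 stood at 141, 145, 152 and 148 CPM in the CDS controls and at 150, 148 and 146 in the PAS controls, and Cenpa at 152, 149, 147 and 146 and at 136, 146 and 142.

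In CDS knockout 3 most members deviated the same way. There only 2 of 33 members lay above their group mean, whereas 29, 22 and 24 did so in CDS knockouts 1, 2 and 4. The group mean includes CDS knockout 3, so its low values by themselves raise the counts of the other CDS knockouts. The counts were 15, 10, 25 and 21 in the CDS controls, 17, 24, 14 and 19 in the PAS knockouts and 10, 14 and 24 in the PAS controls. Over all genes the share above the group mean was 49.3% to 52.1% in every library. The mean deviation of a library carried 27.5% of the members' squared deviations, against 15.6% for 88 further mitotic genes and 16.9% for 36 replication genes, and the share depends on the size of the list. Without CDS knockout 3 these shares were 13.8%, 5.88% and 7.27%. Prc1, which bundles midzone microtubules, was low in CDS knockout 3 as well: it stood at 126, 121, 110 and 120 CPM in the CDS knockouts and at 112, 115, 122 and 116 in the CDS controls. In the PAS line its values were 118, 136, 129 and 130 CPM in the knockouts against 122, 121 and 130 in the controls. PAS knockout 1 was the lowest of its group for Prc1, although 17 of 33 members lay above their mean there, so that low value was not one that most members had. PAS knockout 2 was the highest, yet Incenp, Aurkb, Ube2c and Plk1 deviated from their group mean by -0.13, -0.11, -0.11 and -0.09 (log2) in that library.

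Markers of cell types were set beside these deviations, and they moved with them in some libraries and not in others. In CDS knockout 3 the members had a median deviation of -0.08 (log2), all 13 erythroid markers lay above their group mean, and their sum was 4610 CPM against 1710 to 2460 in the other CDS knockouts. Its cardiomyocyte markers summed to 42300 CPM against 45700 to 46900, with 2 of 15 above the group mean. In the CDS knockouts in order, 13, 8, 2 and 13 cardiomyocyte markers lay above the mean, beside 29, 22, 2 and 24 members. In the CDS controls they numbered 13, 10, 1 and 6, beside 15, 10, 25 and 21 members. In the PAS knockouts they numbered 6, 9, 7 and 4, beside 17, 24, 14 and 19 members. In the PAS controls they numbered 10, 8 and 6, beside 10, 14 and 24 members. Erythroid sums ran from 1950 to 4290 CPM in the CDS controls, where the highest belonged to CDS control 2 with 10 members above the mean, and from 1420 to 3710 in the PAS controls, where the highest belonged to PAS control 1, also with 10. In the PAS knockouts they ran from 1230 to 2430, and the library with the highest sum, PAS knockout 1, had 17 members above the mean. The part of blood cells in the mitosis genes was not tested.

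**Figure D5:**
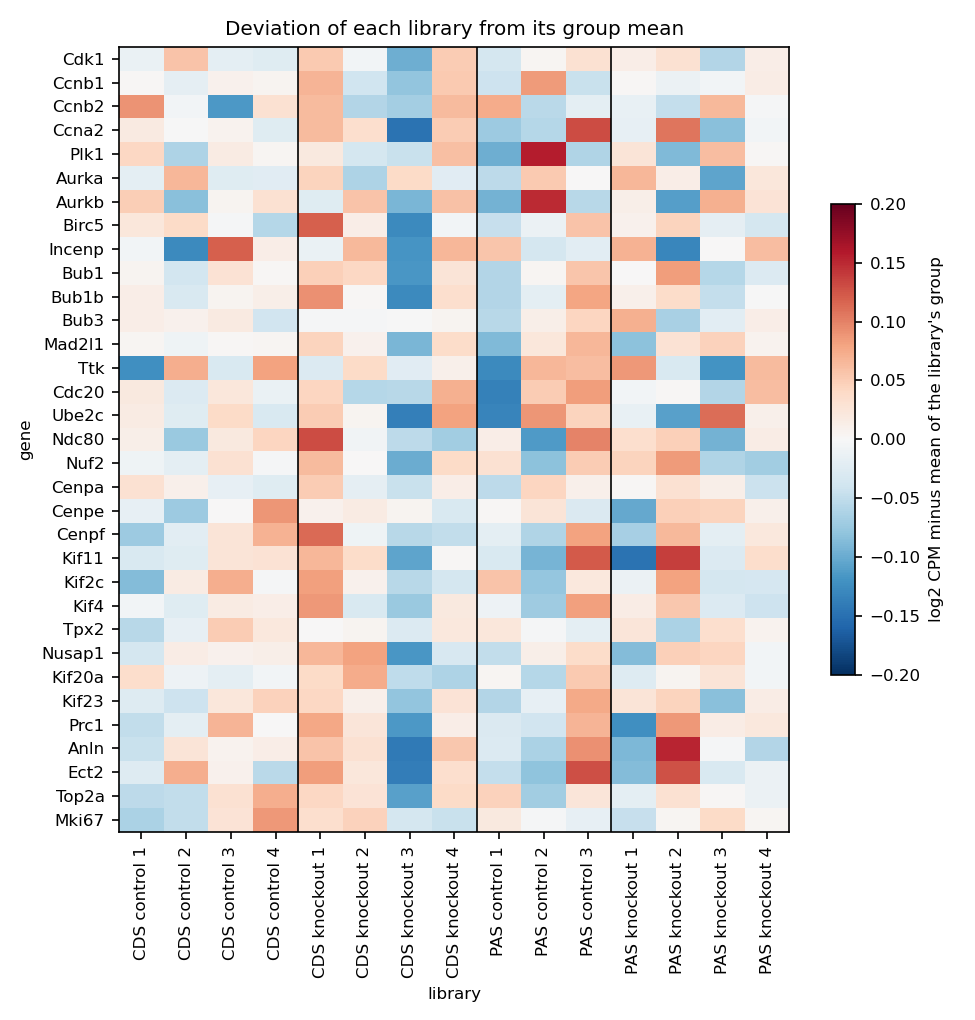
Log2 CPM of each mitosis gene (rows, ordered by role) in each library (columns) minus the mean of the library's group, from blue (lower) to red (higher). The column of CDS knockout 3 is blue for 31 of the 33 genes.

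Other genes of the cell cycle were measured for comparison. Of 89 further mitotic genes 88 were matched and tested. Knockout values were the higher ones for 46 of them in the CDS line and for 64 in the PAS line, with medians of 0.00 and 0.03 (log2) and 0 calls in each, and for 61 in the CDS line without CDS knockout 3. Among them Hjurp, the chaperone that loads Cenpa, stood highest, at 314 ± 11.8 CPM in the CDS knockouts (SD, n = 4) and 299 ± 4.63 in the CDS controls, followed by the condensin subunit Smc4 at 277 ± 8.77 and 282 ± 4.37. In the PAS line Hjurp stood at 312 ± 8.93 CPM in the knockouts and 310 ± 8.29 in the controls (n = 3), and Smc4 at 303 ± 11.3 and 297 ± 19.8. Between the knockout groups 67 of 88 were higher in the PAS line, with a median of 0.06 (log2), and 56 without CDS knockout 3, with a median of 0.03. Ckap2l, a spindle protein, was higher there (log2 difference 0.19, adjusted p = 0.0391 by edgeR), and Cenpw, a DNA-binding subunit of the inner kinetochore, was lower (log2 difference -0.28, adjusted p = 0.0302 by edgeR). Without CDS knockout 3 the adjusted p of Ckap2l was 0.111 and that of Cenpw 0.0305, and without CDS knockout 4 they were 0.0755 and 0.0706. Cenpw was also called among the controls, where it stood at 12.6, 12.9 and 13.4 CPM in the PAS line and at 18.4, 17.0, 17.5 and 16.4 in the CDS line (log2 difference -0.42 ± 0.07, adjusted p = 0.00764 by edgeR). That direction is opposite to that of most mitosis genes.

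Of 36 genes of DNA replication, 16 were higher in the CDS knockouts and 19 in the PAS knockouts than in their controls, with 0 calls. 28 were higher in the PAS than in the CDS controls, and 27 between the knockouts, where Pole, the catalytic subunit of DNA polymerase epsilon, was higher in the PAS line (log2 difference 0.19, adjusted p = 0.0284 by edgeR). The adjusted p of Pole was 0.0937 without CDS knockout 3 and 0.0599 without CDS knockout 4, and without CDS knockout 3 there were 21 replication genes higher in each of the CDS and knockout comparisons. The most abundant, the ribonucleotide reductase subunit Rrm1 and the helicase subunit Mcm6, stood at 286 ± 10.8 and 199 ± 5.71 CPM in the CDS knockouts (SD, n = 4) against 291 ± 8.49 and 200 ± 3.13 in their controls. Of 20 G1 cyclins, kinases and E2F factors 0 were called in any contrast, and Ccnd2 and Cdk4, the most abundant, differed by -0.12 ± 0.06 and -0.03 ± 0.04 (log2) in the CDS line. Of 15 cell cycle inhibitors tested 0 were called. Cdkn1a, the p53 target p21, was the one nearest to the threshold in the CDS line, at 27.6, 25.7, 27.8 and 24.4 CPM in the knockouts against 20.2, 18.2, 23.2 and 17.9 (adjusted p = 0.0559 by edgeR, and 0.313 without CDS knockout 3). Those groups did not overlap, which 1.48% of all genes also showed in that direction, and Cdkn1a was named after its values were seen. Without CDS knockout 4 its adjusted p was 0.0505 by edgeR, and without CDS knockouts 3 and 4 it was 0.457. In the PAS line it stood at 24.1, 25.2, 28.6 and 22.6 CPM against 18.9, 20.7 and 21.3 (adjusted p = 0.934 by edgeR). These groups did not overlap either, as for 2.21% of all genes. The PAS change minus the CDS change of Cdkn1a was -0.10 ± 0.12 (log2). Replication-dependent histones passed the filter in 8 of 16 cases. Their messages lack a poly(A) tail. 7 of these 8 were higher in the CDS knockouts and 3 in the PAS knockouts than in their controls, with medians of 0.75 and -0.22 (log2) and 0 calls. Their levels were low, and their sum did not rise with that median. It was 20.1 to 22.9 CPM in the CDS knockouts and 20.4 to 24.2 in the CDS controls. Their mean log2 CPM was highest of the CDS knockouts in CDS knockout 3, at 0.62 against -0.22 to -0.02 in the other 3, and without that library 5 of 7 were higher, with a median of 0.45.

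The promoter letters differed between these lists as well. CCAAT occurred in 66.2% of the 71 further mitotic genes with an entry and in 67.9% of 28 replication genes. TTTGAA or TTCGAA occurred in 63.4% of the further mitotic genes and in 21.4% of the replication genes, beside 78.6% of the 28 members and 19.2% of all promoters. Both kinds together stood in 46.5% and 17.9%.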

How the data were processed

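The deposited files hold raw read counts per gene, per the file headers from featureCounts 2.1.1 run by the authors on paired reads, with exons of GENCODE release 37 and no strand option. Also listed in the submitters' processing notes are fastp, FastQC, HISAT2 2.2.1, STAR 2.7.11b, DESeq2, GRCm38 and GRCm39, without roles. The extraction text names ribosomal depletion and the design text a stranded poly(A) kit. Exon lengths are those in the files. Symbols came from GENCODE release 21 (51487 of 78317 identifiers, 98.85% of counts).

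The 15 libraries were fitted together with edgeR 4.0.16 in R 4.3.3 (filterByExpr, minimum count 10, TMM, robust quasi-likelihood, 11 residual degrees of freedom). Calls were made at a p under 0.05 after Benjamini-Hochberg adjustment over 20269 genes. CPM values are TMM-normalised, and log2 CPM has a prior count of 2. Standard errors were derived from the F statistic. The test was first tested on simulated counts with known changes. It recovered 80% of 100 genes changed 1.3-fold and 98% of 100 changed 2-fold, with 8 calls among unchanged genes. Smaller changes, such as those fitted for the members, were not simulated. P-values measure the spread between samples that the labels call biological replicates. The fourth PAS control of the design text was not analysed here. Over 21 replicate pairs the chi-square per degree of freedom was 3.41 to 62.6, so none was merged. It was 50.3 to 62.6 in the pairs with CDS knockout 3 and at most 13.8 in the others.

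The 33 members and the other lists were chosen with earlier results of these data known. Values in every library are given for members called, the 3 with the largest difference in each contrast, 1 per role and the 2 most and 2 least variable. From the other lists up to 3 called genes, or the 2 most abundant, are named for the cell cycle, and cell type markers serve as checks. Alternatives were DESeq2 1.42.0, voom in limma 3.58.1, other size factors, no filter, only the groups compared, a replicate block and leaving out libraries.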

Additional observations from a re-analysis of the deposited data

Results flagged for a closer look

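In groups of 4 libraries, 99 sets of member values were checked for 1 library far from the other 3, and 7 were found, where chance gives about 1 in 20. CDS knockout 3 was far below the other CDS knockouts in 4 genes. Top2a stood there at 488 CPM, with the others at 535 to 541. Ccna2, the cyclin of S and G2 phase, stood at 169 CPM, with the others at 191 to 195. Bub1, a checkpoint kinase, stood at 76.8 CPM against 84.7 to 86.0, and Anln, a scaffold of the contractile ring, at 125 CPM against 141 to 144. CDS control 2 was far above the other CDS controls in Cdk1, at 149 CPM against 141 to 142, and in Aurka, a kinase of spindle poles, at 60.2 CPM against 56.5 to 56.7. Nusap1 in CDS control 1 stood at 81.9 CPM, below the 84.4 to 84.8 of the others. No such gap was found in the PAS knockouts, and 3 PAS controls were too few for this check.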

How the results depend on the processing

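No member was called between knockout and control in either line, or for the difference between the lines' changes, under any alternative run. Between the knockout groups 5 members were called with DESeq2 size factors, with limma-voom and with only the groups compared, 6 without the filter on low counts and 7 with DESeq2. Leaving out 1 library at a time gave 0 to 5 members and 65 to 209 of all genes there, and leaving out CDS knockouts 3 and 4 gave 0 members and 46 genes. Among the controls DESeq2 called 1 member. Numbers of all genes called, in the order CDS line, PAS line, difference of changes, controls and knockouts, were 31, 7, 3, 201 and 500 without the filter and 20, 7, 2, 102 and 475 with DESeq2. With limma-voom 2 genes were called for the difference of changes. With only the groups compared, 1 gene was called in the PAS line and 10 among the controls. Leaving out 1 library gave 1 to 2 genes for the difference of changes and 15 to 43 among the controls. The cause of these moves was not tested. Deviations of same-numbered libraries had r from -0.635 to 0.244 over 7 pairs (1 pair per number and line), and differently numbered ones -0.469 to 0.554. Deviations about the means of 3 or 4 libraries cannot decide whether the numbers pair hearts, and the labels do not say. A replicate block gave 0 members in the CDS line, the PAS line and the difference of changes, and 8, 1 and 1 genes in all. The block was not run between the lines. Members higher in the CDS knockouts ranged from 3 to 18 over the alternatives, and those higher in the PAS knockouts than in their controls from 23 to 32. The part of the members' squared deviation carried by the library mean was 13.8% without CDS knockout 3. That value, and the counts of roles, other lists, unadjusted p-values and groups without overlap that leave out CDS knockouts 3 or 4, were alternatives chosen after seeing the data. Depth limited Ttk most, the member with the fewest counts.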
